A study of Mus musculus with 8 samples.

Results

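A set of 8 genes that are widely used as markers or regulators of cancer stem cells were followed in whole EMT6 tumours: Prom1, Cd44, Aldh1a1, Aldh1a3, Bmi1, Sox9, Klf4 and Myc. They were chosen by gene name, 8 of the 26709 genes measured, and each name matched 1 gene. EMT6 is a mouse mammary carcinoma cell line, and the tumours had been grown in syngeneic Balb/c mice, so that the immune system of the host was intact. RNA was sequenced from 8 tumours, 4 labelled IgG, the control, and 4 labelled Granzyme-B, which stands for GrB-Fc-KS49, a human fusion protein with granzyme B that is directed to the membrane protein EMP2. All animals are labelled WT and were treated 3 times over 10 days, and ages and doses were not given. The labels do not state whether the tumours are from separate animals, and the p-values below cover no more than the variation among these 8 samples. Tumours are numbered 1 to 4 within each group, and the numbers pair nothing.

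Cancer stem cells are the subset of tumour cells thought to renew themselves and to seed new growth. In breast tumours they are commonly sorted by surface proteins such as CD44 and prominin-1 (CD133, the product of Prom1) or by the activity of aldehyde dehydrogenases. Some of these enzymes oxidise retinal to retinoic acid. BMI1, a Polycomb protein, silences inhibitors of the cell cycle, while SOX9, KLF4 and MYC are transcription factors linked to progenitor states and self-renewal. None of the 8 genes is specific to such cells. CD44 is also made by leukocytes and fibroblasts, and KLF4 by epidermis, endothelium and myeloid cells. In RNA from whole tumours, fewer cells of a type and less RNA per cell cannot be told apart.

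The promoters of 3 genes are shown, chosen by how treated and control tumours overlapped. For Prom1 and Bmi1 the groups did not overlap, and Cd44 missed this by 1 tumour. Myc missed it by 1 tumour too, but the promoter set used has no entry for Myc, Sox9 or Aldh1a3. Each sequence shown is the 250 bases before the start of transcription, 5′ to 3′ on the strand of the gene. The source is RefSeq on GRCm38.p6, a different build from that of the counts. Capitals mark GGGCGG (the GC box), CACGTG (the E-box bound by MYC with MAX) and CCAAT, each searched on both strands. TATAAA was searched too and is in none of the 3. The GC boxes of Bmi1 overlap each other in part. For Prom1, with 2 listed starts, the one farther upstream is shown.
Prom1: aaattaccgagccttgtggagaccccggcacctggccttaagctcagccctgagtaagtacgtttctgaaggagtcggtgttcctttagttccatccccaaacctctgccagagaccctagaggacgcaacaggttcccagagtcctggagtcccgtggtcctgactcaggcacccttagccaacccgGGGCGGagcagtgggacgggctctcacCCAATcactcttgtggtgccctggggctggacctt
Bmi1: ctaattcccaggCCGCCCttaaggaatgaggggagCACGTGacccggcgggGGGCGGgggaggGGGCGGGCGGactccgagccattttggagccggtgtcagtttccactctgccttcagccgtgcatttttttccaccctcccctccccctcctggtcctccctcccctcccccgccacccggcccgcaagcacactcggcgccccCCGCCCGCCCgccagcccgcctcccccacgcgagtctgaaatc
Cd44: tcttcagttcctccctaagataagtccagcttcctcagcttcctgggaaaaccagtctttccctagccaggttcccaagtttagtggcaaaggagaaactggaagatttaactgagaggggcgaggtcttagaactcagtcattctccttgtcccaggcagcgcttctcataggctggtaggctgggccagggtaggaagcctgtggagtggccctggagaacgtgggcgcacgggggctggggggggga

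The Bmi1 promoter is at chr2:18676768-18677017, that of Cd44 at chr2:102901666-102901915 and that of Prom1 at chr5:44101737-44101986. The Bmi1 sequence is rich in G and C (70.4% against a median of 52.4% over 32851 mouse promoters of the same length) and holds 6 GC boxes and 1 E-box. The Prom1 sequence holds 1 GC box and 1 CCAAT, and the Cd44 sequence none of the motifs searched. Of all promoters, 32.7% hold a GC box, 6.02% the E-box, 33.8% CCAAT and 12.4% TATAAA. These matches describe the letters only.

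The labels call the material epithelial breast tumour cells. Of the epithelial markers, Krt8 was at 444 ± 23.3 CPM in controls and 528 ± 108 CPM in treated tumours, while Epcam was at 3.19 to 4.46 CPM, Cdh1 at 4.05 to 9.07 CPM and Elf5 at 0.138 to 0.448 CPM in controls. Krt8 was thus abundant, while Epcam, Cdh1 and Elf5 were low in controls. These genes were picked from a list of 13 epithelial markers and do not stand for the rest of it. In treated tumours 1 to 4 Epcam was at 2.73, 16.0, 8.62 and 5.26 CPM.

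Library totals ran from 74 to 82.6 M estimated counts. Values are CPM (counts scaled to a common library total) after scaling by the trimmed mean of M-values, and errors are SD over 4 tumours unless stated. All 8 genes passed the filter on low counts and were tested among 19718 genes with edgeR's quasi-likelihood test. Of the 8 genes, 0 passed at a Benjamini-Hochberg adjusted p under 0.05, against 0% of all genes, the smallest adjusted p being 0.0619. At an unadjusted p under 0.05 there were 6 of the 8 genes, against 35.1% of all genes tested, with 3 higher (17.3% of all genes) and 3 lower (17.8%) in GrB-Fc-KS49 tumours. The 8 genes were chosen with earlier results of these data known, so this count cannot test for an excess. The treated tumours lay wholly above the controls for Prom1 (10.3% of all genes) and wholly below them for Bmi1 (15.3%), so 2 of the 8 genes did not overlap, against 25.7% of all genes. With each library's trends of length and GC removed, 3 of the 8 were higher (9.87% of all genes) and 2 lower (17.8%), against 27.7% in either direction. These shares of all genes, before and after that step, also apply to the counts in gene and marker lists below. DESeq2 called 3 of the 7 genes to which it gave an adjusted p, namely Prom1, Cd44 and Bmi1, among 25.7% of all genes with one. Limma-voom with sample weights called 2 of the 8 and 6.55% of all genes at an adjusted p under 0.05. EdgeR called 1 of the 8 and 6.32% of all genes without treated tumour 1, and 5 of the 8 and 17.1% of all genes without treated tumour 4. The 8 genes thus went in different directions, with a median log2 fold change of -0.02 against 0.03 for all tested genes.

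**Figure D1:**
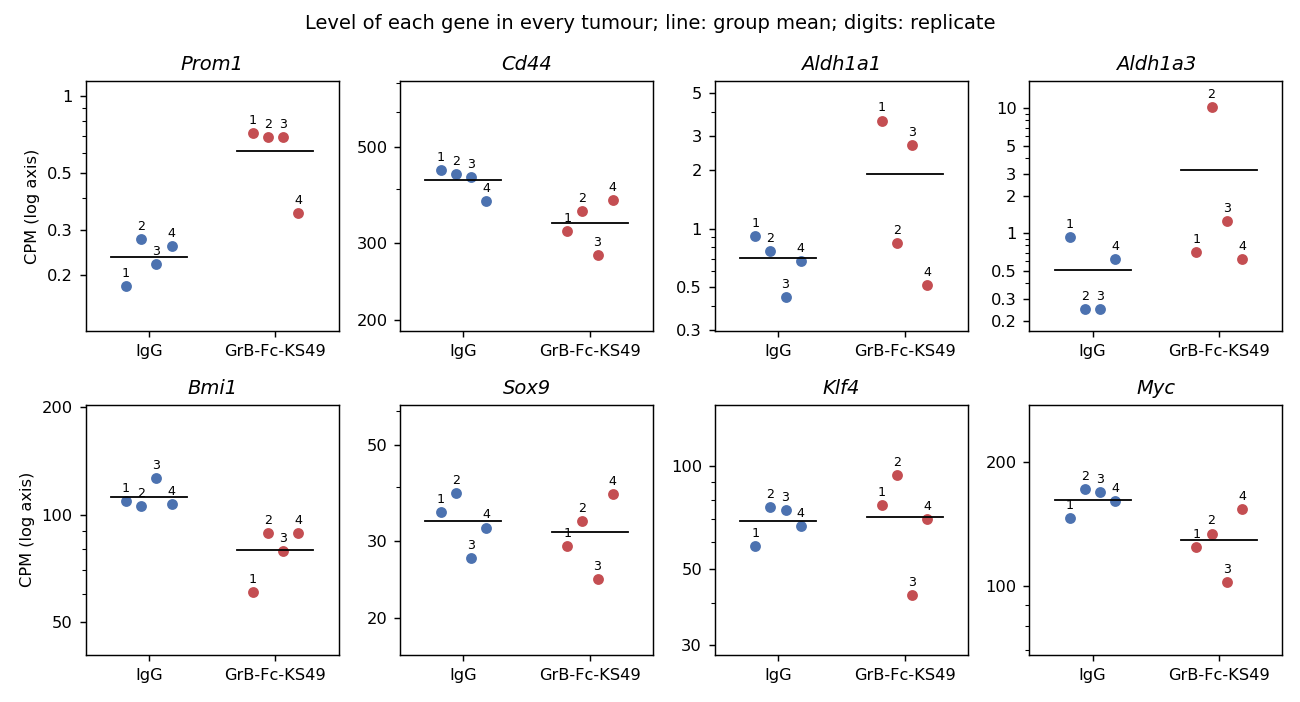
Level of each of the 8 genes in CPM on a log axis, with 1 point per tumour (digits give its number) and a line at the group mean, for 4 IgG and 4 GrB-Fc-KS49 tumours. Prom1 lies between 0.348 and 0.714 CPM in treated tumours and at most 0.277 CPM in controls, Bmi1 is below every control in all 4 treated tumours, Aldh1a1 is above the controls in treated tumours 1 and 3, and Aldh1a3 is far above the rest in treated tumour 2.

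Per kilobase of annotated exon, which allows levels of different genes to be compared, Cd44 and Myc were the most abundant of the 8 in control tumours, at 61.9 ± 4.43 and 59.6 ± 4.20 CPM per kb. These levels did not differ beyond their spread. Bmi1 followed at 28.2 ± 2.42 CPM per kb and Klf4 at 22.7 ± 2.59 CPM per kb, and their ranges of 26.7 to 31.8 and 19.3 to 24.9 did not overlap. Sox9 was at 8.08 ± 1.16 CPM per kb. Aldh1a1, Aldh1a3 and Prom1 were far lower, at 0.142 ± 0.0404, 0.111 ± 0.0713 and 0.0327 ± 0.00595 CPM per kb, and the first 2 of these overlapped. In treated tumours the order from Cd44 to Sox9 was 49.3 ± 6.17 for Cd44, 47.3 ± 8.03 for Myc, 23.3 ± 7.15 for Klf4, 20 ± 3.34 for Bmi1 and 7.63 ± 1.46 CPM per kb for Sox9, and the means of Klf4 and Bmi1 did not differ beyond their spread. Aldh1a3 was at 0.696 ± 1.02 and Aldh1a1 at 0.388 ± 0.301 CPM per kb in treated tumours, and Prom1 at 0.0852 ± 0.0245.

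Prom1 encodes prominin-1, a pentaspan protein of membrane protrusions and the CD133 antigen (ENSMUSG00000029086, GRCm39 chromosome 5, 44150962 to 44259374, minus strand). It was at 0.181, 0.277, 0.221 and 0.260 CPM in control tumours 1 to 4 and at 0.714, 0.692, 0.690 and 0.348 CPM in treated tumours 1 to 4. Treated tumours 1 to 3 were nearly equal and tumour 4 was lower, yet still above every control. The group means were 0.235 ± 0.0427 and 0.611 ± 0.176 CPM, a log2 fold change of 1.37 (SE 0.29, edgeR quasi-likelihood, Benjamini-Hochberg adjusted p = 0.0619). These levels rest on 15 to 21 counts per control library and on 57, 52, 58 and 28 counts in the treated ones. The exact Poisson interval (95%) of the 28 counts, 18.6 to 40.5, overlaps that of the highest control, 13.0 to 32.1, and covers counting error only. DESeq2 gave Prom1 an adjusted p of 0.00482, and without treated tumour 4 edgeR gave 0.0233 with a log2 fold change of 1.56.

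Markers of mammary and other epithelium, where prominin-1 is often found, summed to 492 to 566 CPM in controls and to 734, 1330, 479 and 594 CPM in treated tumours 1 to 4. All 13 of these genes had a higher treated mean and 4 were at an unadjusted p under 0.05 (Wfdc18, Krt5, Krt15 and Krt14). Krt8, given above, made up most of the control sums, and the sum of treated tumour 2 includes Krt14 at 289 CPM. In treated tumour 3 the sum of these epithelial markers was 479 CPM and Prom1 was at 0.690 CPM. Markers of macrophages and monocytes summed to 3920, 3230, 2270 and 1630 CPM in treated tumours 1 to 4 and to 1860 to 2140 CPM in controls, so that tumours 1 to 3 were above every control and tumour 4 below them, and Prom1 too was higher in tumours 1 to 3 than in tumour 4. Of these 10 markers, 8 had a higher treated mean, 3 were higher and 0 lower at an unadjusted p under 0.05 (C1qa, C1qb and Ly6c2), and none was at 0 in any library. Of the epithelial markers, Csn3 was at 0 in at least 1 library. The part of either cell type in the Prom1 difference was not tested. The related gene Prom2, which encodes prominin-2, was at 0.200, 8.32, 3.32 and 0.622 CPM in treated tumours 1 to 4 and at 0.359 to 0.918 CPM in controls (log2 fold change 2.38, edgeR adjusted p = 0.131). Its highest tumour was thus tumour 2, and in tumour 1, where Prom1 was highest, Prom2 lay below every control.

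Cd44 encodes the receptor for hyaluronan, a matrix polysaccharide (ENSMUSG00000005087, chromosome 2, 102641486 to 102732010, minus strand). It was at 443, 433, 427 and 376 CPM in control tumours 1 to 4 and at 320, 356, 282 and 377 CPM in treated tumours 1 to 4. Treated tumours 1 to 3 lay below all controls, and tumour 4 was level with the lowest control. The means were 420 ± 30.0 and 334 ± 41.8 CPM, a ratio of 0.795 and a log2 fold change of -0.33 (SE 0.10, edgeR quasi-likelihood adjusted p = 0.0710). In the deposited CPM, without the further scaling, the groups did not overlap, with 293 to 375 CPM in treated tumours and 384 to 444 CPM in controls. Cd44 was called by DESeq2 (adjusted p = 0.0256) and by edgeR without treated tumour 4 (0.0397).

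Trends of expression with transcript length and base composition differed between the groups, so they and the treatment cannot be told apart. Their part in the Cd44 difference was not tested. Across 19297 genes, transcript length was correlated with how far each library departed from the mean of each gene, with Spearman's rho between 0.21 and 0.24 for controls but between -0.28 and -0.09 for the treated group. The values for GC content lay between -0.17 and -0.12 for controls and between 0.06 and 0.13 for the treated group. These are correlations over genes, which are not independent replicates. The longest annotated Cd44 transcript has 5614 bases and 44.5% GC, against medians of 2804 bases and 49.3% over the genes tested. With the trends of length and GC removed from each library, the log2 fold change of Cd44 was -0.17 (edgeR unadjusted p = 0.146). The same step left Prom1 at 1.43 and Bmi1 at -0.49, and took Myc from -0.33 to -0.53.

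Markers of leukocytes, which also make CD44, summed to 675 to 911 CPM in controls and to 1430, 1160, 759 and 813 CPM in treated tumours 1 to 4. Fibroblast markers summed to 2720 to 4780 CPM in controls and to 2360, 2660, 5770 and 3950 CPM in treated tumours. Col1a1 had the highest mean of the fibroblast markers. None of the 8 leukocyte and 7 fibroblast markers was at 0 in any library, and their part in the Cd44 difference was not tested. Among 22 genes for ligands and partners of CD44, the median log2 fold change was -0.18, with 0 past the adjusted threshold. Of them, 2 were higher (17.3% of all genes) and 7 lower (17.8%) at an unadjusted p under 0.05. The lower genes were Hmmr, Met, Adam10, Rdx, Msn, Nf2 and Adam17, which are another hyaluronan receptor, a receptor kinase that works with CD44, shedding proteases (Adam10 and Adam17) and proteins that link membrane and cytoskeleton or regulate that link. Hmmr was at 37.9 ± 3.73 CPM against 48.8 ± 2.53 CPM in controls (log2 fold change -0.36, edgeR adjusted p = 0.0619), and Msn, which encodes moesin, at 942 ± 145 CPM against 1230 ± 111 CPM (-0.38, adjusted p = 0.0745). Both genes were lower in every treated tumour than in every control. Ezr, which encodes the related linker ezrin, was at 92.2 ± 11.6 CPM against 95.3 ± 7.98 CPM, and Spp1, which encodes the CD44 ligand osteopontin, at 2710 ± 443 CPM against 2580 ± 449 CPM. Has2, a hyaluronan synthase, was at 52.8, 85.4, 166 and 141 CPM in treated tumours 1 to 4 and at 182 ± 36.9 CPM in controls (log2 fold change -0.71, edgeR adjusted p = 0.165). The 2 higher genes were Cd74, which encodes the MHC class II invariant chain and a CD44 partner, at 1270 ± 1280 CPM against 211 ± 135 CPM, and Esrp1, a splicing factor that sets epithelial isoforms of CD44, at 3.21 ± 5.45 CPM against 0.230 ± 0.142 CPM. Both had a treated SD above the treated mean. Esrp1 was at 0.188, 11.4, 0.833 and 0.460 CPM in treated tumours 1 to 4, so that its mean rests on tumour 2, and tumour 1 was within the control range of 0.0828 to 0.395 CPM. With the length and GC trends removed, the count in this list was 2 higher (9.87% of all genes) and 4 lower (17.8%), near the shares of all genes.

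**Figure D2:**
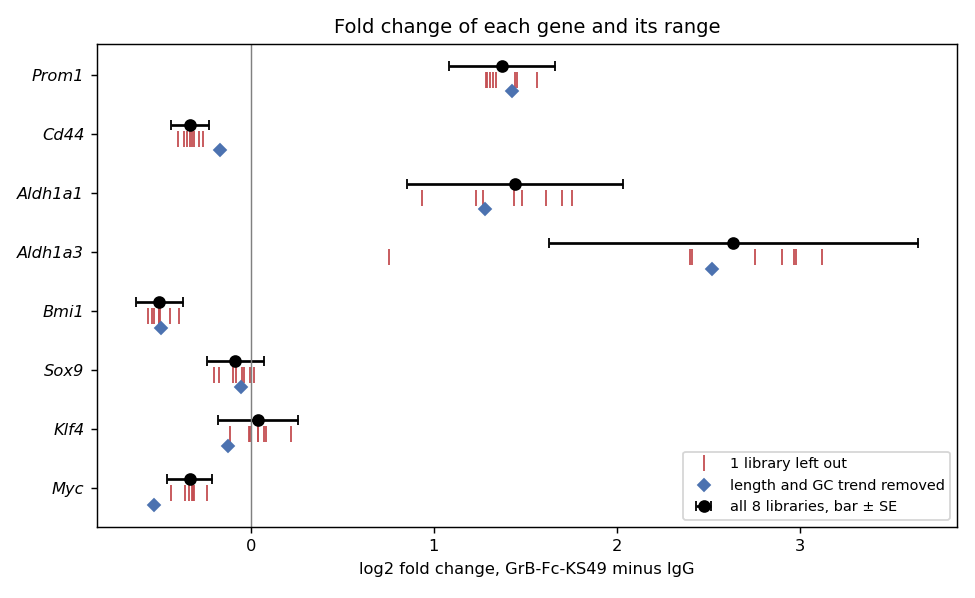
Log2 fold change (GrB-Fc-KS49 minus IgG) of each gene from all 8 libraries with its standard error (black), with each library left out in turn (red ticks), and with length and GC trends removed (blue). Prom1 stays between 1.29 and 1.56 with any 1 library left out, while Aldh1a3 is at 0.76 without treated tumour 2, and Cd44 and Myc move in opposite directions when the trends are removed.

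Aldh1a1 and Aldh1a3 encode cytosolic retinaldehyde dehydrogenases, whose activity is among those that the aldehyde dehydrogenase assay of stem-like cells detects. Aldh1a1 (ENSMUSG00000053279, chromosome 19, 20470079 to 20620829, plus strand) was at 0.919, 0.765, 0.442 and 0.682 CPM in control tumours 1 to 4. In treated tumours 1 to 4 it was at 3.62, 0.839, 2.69 and 0.510 CPM. Only tumours 1 and 3 lay above the controls, and the other 2 were within their range. The means were 0.702 ± 0.199 and 1.91 ± 1.49 CPM (log2 fold change 1.44, SE 0.59, edgeR quasi-likelihood adjusted p = 0.124). Without treated tumour 1 the log2 fold change was 0.94 (edgeR adjusted p = 0.315) and without tumour 4 it was 1.76 (0.0448). Limma-voom with sample weights gave 0.68 (adjusted p = 0.414), and limma on log2(CPM + 1), a scale that understates low genes, gave 0.64 (0.230).

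Markers of fat and muscle were also high in these tumours. Adipocyte markers summed to 42.0 and 161 CPM in treated tumours 1 and 3, against 26.6 and 25 CPM in tumours 2 and 4 and 11.7 to 32.1 CPM in controls. Skeletal muscle markers summed to 2310, 290, 369 and 40 CPM in treated tumours 1 to 4 and to 41.2 to 194 CPM in controls. The muscle sum was thus above every control in tumour 2 as well, where Aldh1a1 was within the control range. All 7 adipocyte and all 7 muscle markers had a higher treated mean, none was at 0 in any library, and 2 and 6 of them were at an unadjusted p under 0.05. Their part in the Aldh1a1 difference was not tested.

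Aldh1a3 (ENSMUSG00000015134, chromosome 7, 66040638 to 66077265, minus strand) was at 0.931, 0.25, 0.248 and 0.620 CPM in control tumours 1 to 4 and at 0.714, 10.3, 1.25 and 0.622 CPM in treated tumours 1 to 4. Treated tumour 2 stood apart with 771 counts, and 2 of the other 3 lay within the range of the controls. The means were 0.512 ± 0.329 and 3.21 ± 4.71 CPM (log2 fold change 2.64, SE 1.01, edgeR quasi-likelihood adjusted p = 0.109). Without treated tumour 2 the log2 fold change was 0.76 (edgeR adjusted p = 0.343). DESeq2 gave no p-value for this gene. In the same tumour, markers of epidermis and hair follicle summed to 1650 CPM, against 2.35 to 10.5 CPM in the other treated tumours and 2.16 to 4.92 CPM in controls. Of these 9 markers, 0 to 4 were at 0 per library. The epidermal keratin Krt10 was at 725 CPM and the basal keratin Krt14 at 289 CPM there, and their part in the Aldh1a3 value was not tested. The 2 enzymes thus peaked in different tumours, Aldh1a1 in tumours 1 and 3 and Aldh1a3 in tumour 2.

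Aldh1a7, a close mouse paralogue of Aldh1a1 that lies next to it on chromosome 19, was at no more than 0.393 CPM in any library and did not pass the filter on low counts. How the counting divided reads shared by these paralogues was not given. Over 15 other aldehyde dehydrogenase genes tested, the median log2 fold change was -0.08 and 0 passed after adjustment. Of them, 5 were higher (17.3% of all genes) and 4 lower (17.8%) at an unadjusted p under 0.05. The higher genes were Aldh16a1, Aldh1a2, Aldh3a1, Aldh3b1 and Aldh1b1, and the lower ones Aldh1l2, Aldh3a2, Aldh18a1 and Aldh9a1. Aldh1a2, the third retinaldehyde dehydrogenase, was at 3.01 ± 2.47 CPM against 1.07 ± 0.184 CPM in controls (log2 fold change 1.49, edgeR adjusted p = 0.107). Aldh1l2, a mitochondrial enzyme of folate metabolism, was at 34.1, 51.0, 39.7 and 72.6 CPM in treated tumours 1 to 4 and at 85.4 to 99.1 CPM in controls (-0.92, edgeR adjusted p = 0.0619). Aldh3a2, which oxidises fatty aldehydes, was at 32.2 ± 3.97 CPM against 42.7 ± 2.70 CPM and Aldh16a1 at 34.3 ± 4.86 CPM against 25.5 ± 0.856 CPM, both without overlap between the groups (edgeR adjusted p = 0.0619 each). With the trends of length and GC removed, 2 of these genes were higher and 4 lower. Aldh2, the abundant mitochondrial enzyme that clears acetaldehyde, was at 278 ± 5.24 CPM against 279 ± 22.0 CPM.

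In the retinoid pathway, which the products of these enzymes enter, 0 genes passed after adjustment and the median log2 fold change was 0.00. Of 16 genes, 5 were higher (17.3% of all genes) and 0 lower (17.8%) at an unadjusted p under 0.05. They included Dhrs3, Fabp5, Cyp26a1 and Crabp2, and 3 genes were higher and 1 was lower once the trends of length and GC were removed. Dhrs3, which reduces retinal back to retinol, was at 38.9 ± 5.85 CPM against 28.7 ± 2.52 CPM and the groups did not overlap (log2 fold change 0.44, edgeR adjusted p = 0.0627). Fabp5, a carrier of fatty and retinoic acids that is abundant in epidermis, was at 16.7, 45.3, 6.05 and 4.26 CPM in treated tumours 1 to 4 and at 2.95 to 5.2 CPM in controls, with tumour 4 inside that range.

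Bmi1 encodes a ring finger subunit of Polycomb repressive complex 1 (ENSMUSG00000026739, chromosome 2, 18681829 to 18691440, plus strand). It was at 109, 106, 127 and 107 CPM in control tumours 1 to 4 and at 60.7, 88.7, 79.2 and 89.0 CPM in treated tumours 1 to 4. All treated tumours lay below all controls, with tumour 1 the lowest. The means were 112 ± 9.62 and 79.4 ± 13.3 CPM, a ratio of 0.708 and a log2 fold change of -0.50 (SE 0.13, edgeR quasi-likelihood adjusted p = 0.0619). The difference was called by DESeq2 (adjusted p = 0.00837), by limma-voom with sample weights (0.0478) and by edgeR without treated tumour 1 (log2 fold change -0.39, 0.0414) or tumour 4 (-0.56, 0.0366).

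Of 21 other Polycomb genes, 9 were lower (17.8% of all genes) and 3 higher (17.3%) at an unadjusted p under 0.05. Their median log2 fold change was -0.13 and 0 passed after adjustment. With the trends of length and GC removed the count was 6 lower and 0 higher. The 9 lower genes were Phc3, Suz12, Jarid2, Pcgf6, Rnf2, Pcgf3, Rybp, Phc1 and Cbx2, which include members of both repressive complexes. Rnf2, the ubiquitin ligase that pairs with BMI1, was at 44.2 ± 6.29 CPM against 57.0 ± 3.44 CPM in controls (log2 fold change -0.37, edgeR adjusted p = 0.0669). Ring1, the alternative ligase, was at 16.1 ± 1.21 CPM against 13.2 ± 0.0520 CPM (0.29, adjusted p = 0.0627), so the 2 ligases were on opposite sides of the controls in every treated tumour. The other higher genes were Pcgf1 and Phc2. Suz12, a core subunit of repressive complex 2, was at 60.2, 71.7, 73.5 and 87.0 CPM in treated tumours 1 to 4 and at 96.4 to 103 CPM in controls. Ezh2, its methyltransferase, was at 53.9 ± 3.91 CPM against 59.4 ± 4.36 CPM in controls (log2 fold change -0.14, edgeR adjusted p = 0.239).

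Among 7 cell cycle inhibitors of the families that Polycomb proteins silence, the median log2 fold change was 0.28. Of them, 1 was higher (17.3% of all genes) and 0 lower (17.8%) at an unadjusted p under 0.05. That gene was Cdkn2d, at 23.1 ± 1.71 CPM against 18.6 ± 0.977 CPM (0.32, edgeR adjusted p = 0.0619), and with the trends of length and GC removed 0 were higher and 1 lower and the median was 0.01. Cdkn2a, the classical BMI1 target that encodes p16 and p19, was at 17.0 ± 9.89 CPM against 14.0 ± 6.16 CPM in controls (log2 fold change 0.28, edgeR adjusted p = 0.675). Cycling cell markers summed to 989, 970, 1060 and 1150 CPM in treated tumours 1 to 4 and to 1190 to 1250 CPM in controls, with 5 of 8 lower and 0 higher at an unadjusted p under 0.05. None of these markers was at 0 in any library, and their part in the Bmi1 and Myc differences was not tested.

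**Figure D3:**
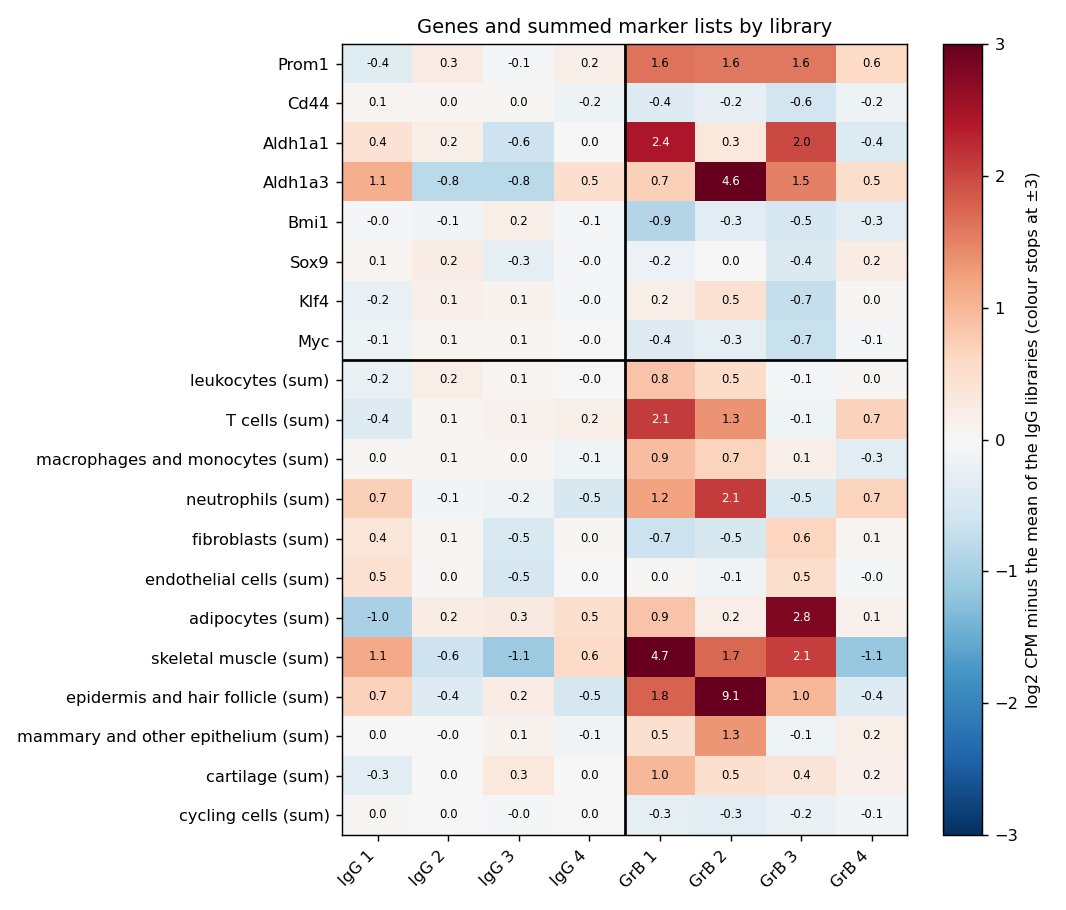
Log2 CPM minus the mean of the IgG libraries for the 8 genes (top) and for the summed CPM of 12 marker lists (bottom), by library, with the value printed in each cell and colours that stop at ±3. treated tumour 2 holds the peak of Aldh1a3 and of epidermis markers, Aldh1a1 is highest in tumours 1 and 3, with muscle markers highest in tumour 1 and adipocyte markers in tumour 3, and Bmi1 is below the controls in all 4 treated libraries.

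Sox9, a transcription factor of mammary luminal progenitors, hair follicles and cartilage (ENSMUSG00000000567, chromosome 11, 112673050 to 112678586, plus strand), was at 35.0, 38.8, 27.4 and 32.3 CPM in control tumours 1 to 4. In treated tumours 1 to 4 it was at 29.3, 33.5, 24.6 and 38.7 CPM. The groups overlapped almost completely, with means of 33.4 ± 4.81 and 31.6 ± 6.02 CPM (log2 fold change -0.08, SE 0.15, edgeR quasi-likelihood adjusted p = 0.729). The sign turned without treated tumour 3, at 0.02. Over 10 other Sox genes tested, the median log2 fold change was 0.37. Of them, 1 was higher (17.3% of all genes) and 0 lower (17.8%) at an unadjusted p under 0.05. It was Sox6, a gene active in muscle and cartilage, at 1.85, 0.932, 0.607 and 0.112 CPM in treated tumours 1 to 4 and at 0.0690 to 0.266 CPM in controls (edgeR adjusted p = 0.0790). The muscle marker sums were 2310, 290, 369 and 40 CPM in the same tumours, and their part in the Sox6 difference was not tested. Sox4, a factor of progenitor cells, was at 246 ± 35.9 CPM against 239 ± 13.1 CPM.

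Klf4, a zinc finger factor of epithelial differentiation and one of the reprogramming factors (ENSMUSG00000003032, chromosome 4, 55527143 to 55532466, minus strand), was at 58.7, 76.1, 74.4 and 67.1 CPM in control tumours 1 to 4. In treated tumours 1 to 4 it was at 77.1, 94.6, 42.2 and 70.4 CPM, so that tumours 1 and 2 lay above the controls and tumour 3 below them. The means were 69.1 ± 7.91 and 71.1 ± 21.8 CPM (log2 fold change 0.04, SE 0.22, edgeR quasi-likelihood adjusted p = 0.908). The sign depended on the processing, with -0.12 with both trends taken out. Over 13 other Klf genes tested, the median log2 fold change was 0.00. Of them, 2 were lower (17.8% of all genes) and 0 higher (17.3%) at an unadjusted p under 0.05. These were Klf3, a repressor, at 91.8 ± 17.5 CPM against 134 ± 9.40 CPM without overlap (-0.55, edgeR adjusted p = 0.0619), and Klf10, a TGF-beta induced gene, at 73.3 ± 14.7 CPM against 95.7 ± 12.2 CPM. Klf5, a factor of proliferating epithelium, was at 106 ± 23.4 CPM against 108 ± 15.5 CPM.

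Myc encodes a transcription factor that drives growth and ribosome production (ENSMUSG00000022346, chromosome 15, 61857240 to 61862223, plus strand). It was at 146, 172, 169 and 161 CPM in control tumours 1 to 4 and at 124, 134, 102 and 154 CPM in treated tumours 1 to 4. Treated tumours 1 to 3 lay below every control, and tumour 4 lay above control tumour 1. The means were 162 ± 11.4 and 129 ± 21.8 CPM, a ratio of 0.794 and a log2 fold change of -0.33 (SE 0.12, edgeR quasi-likelihood adjusted p = 0.100). Without treated tumour 4 the log2 fold change was -0.43 (edgeR adjusted p = 0.0393), and with both trends taken out it was -0.53 (0.115). DESeq2 gave an adjusted p of 0.0600.

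Of 25 genes taken as MYC targets, 7 were lower (17.8% of all genes) and 0 higher (17.3%) at an unadjusted p under 0.05. Their median log2 fold change was -0.07, with 0 past adjustment. With the trends of length and GC removed 9 were lower and 1 higher. The 7 were Wdr43, Polr1b, Bop1, Cad, Mybbp1a, Rcl1 and Eif4e. Wdr43, a nucleolar protein of small subunit assembly, was at 116, 111, 101 and 123 CPM in treated tumours 1 to 4 and at 137 to 140 CPM in controls (log2 fold change -0.30, edgeR adjusted p = 0.0619). Polr1b, a subunit of RNA polymerase I, was at 24.7 ± 2.73 CPM against 33.1 ± 3.35 CPM (-0.42, adjusted p = 0.0619) and Bop1, a factor of large subunit assembly, at 60.2 ± 4.32 CPM against 72.7 ± 2.36 CPM (-0.27, adjusted p = 0.0619). Odc1, a classical target that makes polyamines, was at 273 ± 15.6 CPM against 291 ± 29.2 CPM (-0.10, edgeR adjusted p = 0.457).

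In the network of MYC relatives and partners, the median log2 fold change was 0.05. Of 16 genes, 2 were higher (17.3% of all genes) and 3 lower (17.8%) at an unadjusted p under 0.05. Mga, a MAX partner that represses MYC sites, was at 49.8, 55.1, 48.7 and 63.8 CPM in treated tumours 1 to 4 and at 73.2 to 86.6 CPM in controls (log2 fold change -0.51, edgeR adjusted p = 0.0619). Usp28, which stabilises MYC, and Trrap, a coactivator of MYC, were the other lower genes and did not overlap between the groups either, with Usp28 at 16.7 ± 2.39 CPM (controls 21.6 ± 0.779) and Trrap at 103 ± 16.4 CPM (controls 133 ± 5.49). The higher genes were Mxd4 and Mycl, the latter at 1.58 ± 1.49 CPM against 0.423 ± 0.133 CPM. Max, the obligate partner, was at 113 ± 15.2 CPM against 97.7 ± 8.13 CPM (0.22, edgeR adjusted p = 0.179).

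The spread within the treated group exceeded that within the controls for all 8 genes, by the coefficient of variation, which was larger in the treated group for 78.9% of all tested genes. It was 7.15% in controls and 12.5% in treated tumours for Cd44, 7.06% and 17.0% for Myc, and 8.57% and 16.7% for Bmi1. For Klf4 it was 11.4% and 30.7%, for Aldh1a1 28.4% and 77.7%, and for Aldh1a3 64.2% and 147%. For Prom1 it was 18.2% and 28.7%, and for Sox9 14.4% and 19.1%.

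Other genes are also used to recognise stem-like cells. Of 19 surface markers and transporters, 2 were higher (17.3% of all genes) and 1 lower (17.8%) at an unadjusted p under 0.05, with 0 past adjustment and a median log2 fold change of 0.17. Itgb1, the beta-1 integrin, was at 817, 1150, 1210 and 1300 CPM in treated tumours 1 to 4 and at 1370 to 1540 CPM in controls (log2 fold change -0.38, edgeR adjusted p = 0.0917). Cd24a, whose low level is used beside CD44 to sort breast cancer stem cells, was at 15.1, 24.6, 12.0 and 5.27 CPM in treated tumours 1 to 4 and at 6.66 to 8.63 CPM in controls (0.93, adjusted p = 0.132). The first 3 were above the controls and tumour 4 below them. Prom2, given above, was the other higher gene. Lgr5, a marker of intestinal and mammary stem cells, was at 0.782 ± 0.507 CPM against 0.794 ± 0.440 CPM. Among pluripotency factors, 7 of 12 are in the table and 4 passed the filter on low counts, with 0 higher or lower at an unadjusted p under 0.05, and all 7 together summed to 4.34 to 12.8 CPM per library. Nanog was at 0.682 ± 0.288 CPM against 0.876 ± 0.170 CPM.

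Among pathways linked to self-renewal, WNT had 3 of 26 genes higher and 6 lower at an unadjusted p under 0.05 (median log2 fold change -0.13). NOTCH had 3 of 18 higher and 3 lower (0.08), and Hedgehog had 0 of 12 higher and 2 lower (-0.22). No gene of these pathways passed after adjustment. Over all genes, 17.3% were higher and 17.8% lower, and the NOTCH counts and the lower Hedgehog count lay near these shares. The lower WNT genes were Apc, Znrf3, Gsk3b, Axin1, Lrp6 and Fzd7, of which the first 4 encode inhibitors of the pathway and the last 2 its receptors. Apc, a scaffold of the complex that destroys beta-catenin, was at 36.7, 48.6, 50.2 and 62.2 CPM in treated tumours 1 to 4 and at 73.7 to 80.7 CPM in controls (log2 fold change -0.63, edgeR adjusted p = 0.0619). The higher ones were Lef1, a target and effector of the pathway, and the inhibitors Rnf43 and Sfrp1. In the NOTCH list Lfng, Hes1 and Notch4 were higher, and Numb, Notch2 and Maml1 were lower. Notch2, a receptor, was at 142 to 242 CPM against 263 to 283 CPM and did not overlap between the groups (-0.46, edgeR adjusted p = 0.0716). The lower Hedgehog genes were Smo, the signal transducer, at 145 ± 33.5 CPM against 211 ± 7.49 CPM, and Sufu, an inhibitor, at 50 ± 7.64 CPM against 61.1 ± 4.24 CPM.

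**Figure D4:**
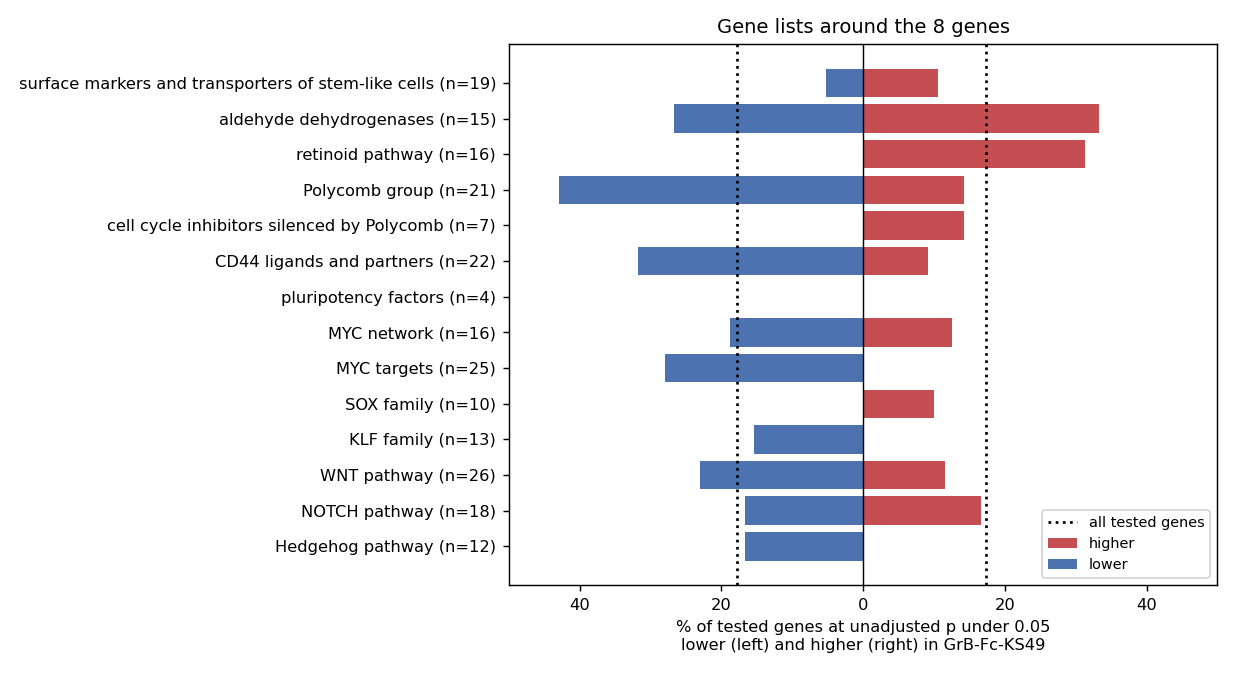
Share of the tested genes of each list at an unadjusted p under 0.05, lower in GrB-Fc-KS49 to the left and higher to the right, with dotted lines at the shares of all tested genes (17.8% and 17.3%). Polycomb genes extend farthest to the left, with 9 of 21, and aldehyde dehydrogenases farthest to the right, with 5 of 15, and no list gene passed after adjustment.

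The genes whose profile over the 8 libraries was closest to each of the 8 were found among 12685 or 12686 other protein-coding genes with a mean of at least 1 CPM. Likeness was the root mean square difference in log2 CPM after each gene was centred on its own mean, a description that includes the difference between the groups. Prom1 was nearest to Apoe, an apolipoprotein made by macrophages (0.187), and Apoc2, another apolipoprotein (0.218), against a median of 0.787 over all candidates. Prom1 had 15 to 58 counts per library, so counting error makes the ranking of its nearest genes imprecise. Apoe was at 878, 888, 769 and 409 CPM in treated tumours 1 to 4 and at 223 to 378 CPM in controls, the same pattern of 3 high treated tumours and 1 nearer the controls. Cd44 was nearest to Prkca, a protein kinase C (0.040), and Gpd2, a mitochondrial glycerol phosphate dehydrogenase (0.043), with a median of 0.273. Bmi1 was nearest to Rnf111, a ubiquitin ligase (0.031), and Polr3f, a subunit of RNA polymerase III (0.037), with a median of 0.342.

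Aldh1a1 was nearest to Pi16, a marker of adventitial fibroblasts (0.262), and Gdf10, a BMP-family ligand (0.288), with a median of 1.056. Pi16 was at 39.6, 14.7, 26.2 and 7.01 CPM in treated tumours 1 to 4. In control tumours 1 to 4 it was at 12.5, 7.5, 5.56 and 7.95 CPM. It was highest in treated tumours 1 and 3, as Aldh1a1 was. In treated tumour 2 Pi16 was also above every control, whereas Aldh1a1 was within the control range there. Of the 7 fibroblast markers, Pi16 alone was at an unadjusted p under 0.05, and 4 had a higher and 3 a lower treated mean. Their sum was 2360, 2660, 5770 and 3950 CPM in treated tumours 1 to 4 and 2720 to 4780 CPM in controls. Col1a1 had the highest mean among these 7 markers, and Pi16 was a small part of the sum. The part of fibroblasts in the Aldh1a1 difference was not tested. Aldh1a3 was nearest to Wnt4, a WNT ligand (0.565), and Celsr2, an adhesion receptor (0.639), with a median of 1.590, and both were highest in tumour 2, at 6.26 and 6.38 CPM. Sox9 was nearest to Hbegf, an EGF receptor ligand (0.073), and Ddit3, a stress-induced factor (0.112), with a median of 0.296. Klf4 was nearest to Evi2a (0.097) and Gk, glycerol kinase (0.104), with a median of 0.381. Myc was nearest to Utp4, a factor of ribosome assembly (0.056), and Slc30a4, a zinc transporter (0.059), with a median of 0.294.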

How the data were processed

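RNA of 8 tumours was enriched for poly(A), primed at random and made into strand-marked libraries with a KAPA kit, per the labels' protocols. The submitters' processing notes name bcl2fastq 2.19.1.403, STAR and the build GRCm39. Which quantifier and annotation release were used, and whether strand was, was not given. The authors deposited estimated counts for 26709 genes, each with at least 10 counts in all, and CPM made from them after adding 0.0001 count. On the deposited coordinates no other gene of the table overlaps any of the 8. Estimated counts were rounded, filtered with filterByExpr (19718 genes kept), scaled by TMM and compared with edgeR 4.0.16 (robust quasi-likelihood F test, R 4.3.3), with Benjamini-Hochberg adjustment over all genes and a threshold of 0.05. The procedure was tested on simulated data. Standard errors are the log2 fold change over the square root of F. Lengths and GC content are those of GENCODE M21 (GRCm38), joined by gene ID. The alternatives were other scalings and filters, DESeq2 1.42.0, limma 3.58.1 (voom, or log2 of deposited CPM + 1 or + 0.25), libraries left out, the U suffix that 1 title per group carries as covariate, and removal of spline trends (5 degrees of freedom) with length and GC. The U suffix is on control tumour 1 and treated tumour 3, and its meaning was not given. The 8 genes, the 14 pathway lists and the 12 marker lists were chosen with earlier results of these data known. The rule named all 8 genes, from each pathway list the 3 genes with the smallest p, genes behind a count of 5 or fewer, and 6 preset genes (Has2, Spp1, Ezr, Msn, Hmmr, Aldh1a7), from each marker list set beside a result the summed CPM and up to 3 of its most abundant genes, and for each of the 8 its 2 nearest profiles. Aldh2, Ezh2, Cdkn2a, Lgr5, Sox4, Klf5, Odc1, Max, Rnf2, Ring1 and Mycl were given besides, after their values were seen. Epcam, Cdh1 and Elf5 were given outside the rule too. The rule also named Cdkn1b, Cdkn1c, Sox10, Sox17, Klf15, Tfcp2l1 and Cdon, which are not given and were not at an unadjusted p under 0.05. Lists of T cells, neutrophils, endothelium and cartilage are only in the plot by library. Replicate numbers follow accession order and pair nothing. A gene of the retinoid list is not reported here.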

Additional observations from a re-analysis of the deposited data

Results flagged for a closer look

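A check for single tumours far from the others of their group compared the gap to the nearest tumour with the range of the group (Dixon's test at 95%). Over 182 groups of 91 genes, 18 stood out. Chance alone gives about 1 in 20 for independent genes. These genes were partly picked by their values and some move together, so the count does not measure an excess over chance. Of the 8 genes, Prom1 was at 0.348 CPM in treated tumour 4, with the nearest tumour at 0.690 CPM. Aldh1a3 was at 10.3 CPM in treated tumour 2, with the nearest at 1.25 CPM. Bmi1 was at 127 CPM in control tumour 3, above the nearest control at 109 CPM.

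In control tumour 3, Dhrs3 was low at 24.9 CPM, Lin28b at 2.41 CPM and the cycling marker Mki67 at 329 CPM. Lipe was low at 6.0 CPM in control tumour 1, and Krt14 was high at 13.9 CPM in control tumour 4. In treated tumour 1, the muscle genes Myh4 and Ckm were high at 635 and 250 CPM, and the cartilage gene Chad at 0.188 CPM. In treated tumour 2, the keratinocyte genes Krt10, Krt1, Sbsn and Krt14 were high at 725, 565, 164 and 289 CPM. In treated tumour 3, the adipocyte genes Plin4 and Cidec were high at 43.1 and 36.2 CPM. Hmmr was at 43.5 CPM in treated tumour 4, nearer to the controls than the other treated tumours.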

How the results depend on the processing

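Under the 20 alternatives, Prom1, Aldh1a1 and Aldh1a3 stayed higher and Cd44, Bmi1 and Myc stayed lower in treated tumours wherever they could be fitted. The filter of at least 1 CPM in 4 libraries dropped the first 3 of these genes, and DESeq2 gave no p-value for Aldh1a3. DESeq2 called Prom1 (1.38), Cd44 (-0.33) and Bmi1 (-0.50), 3 of the 8 genes and 4747 of all genes. Limma-voom with sample weights called Prom1 (1.20) and Bmi1 (-0.42), 2 genes of the 8 and 1291 in all, and without weights 1 gene in all. Without treated tumour 4, edgeR called Prom1 (1.56), Cd44 (-0.40), Aldh1a1 (1.76), Bmi1 (-0.56) and Myc (-0.43), 5 of the 8 and 3447 in all, and without replicate 1 Bmi1 (-0.39), 1 of the 8 and 1260 in all. With each library left out in turn, the counts called ran from 0 to 5 of the 8, and from 3 to 6 of the 8 at an unadjusted p under 0.05, where 5134 to 7845 of all genes were. The log2 fold changes then ran from 1.29 to 1.56 for Prom1, -0.40 to -0.26 for Cd44, 0.94 to 1.76 for Aldh1a1, 0.76 to 3.12 for Aldh1a3, -0.56 to -0.39 for Bmi1, -0.43 to -0.24 for Myc, -0.20 to 0.0174 for Sox9 and -0.11 to 0.22 for Klf4. Without both libraries with a U suffix, Prom1 was at 1.20, Cd44 at -0.23 and Aldh1a3 at 3.36, outside these ranges. At least 1 CPM in 4 libraries left 3 of the 8 and 5646 of all genes at an unadjusted p under 0.05, as fewer of them were tested. The median of the lists for MYC targets, MYC network, NOTCH, aldehyde dehydrogenases, KLF family, retinoid pathway and pluripotency changed sign with at least 1 library left out. The log2 fold change of Sox9 turned to 0.0174 without treated tumour 3 and to 0.0420 without both libraries with a U suffix. That of Klf4 turned to -0.01 with limma-voom, with and without weights (-0.0127 and -0.0113), to -0.0111 without control tumour 1, to -0.0010 and -0.11 without treated tumours 1 and 2, to -0.0025 with the suffix as covariate and to -0.12 with length and GC trends removed. For the other changes the cause was not tested. The median of the cell cycle inhibitors went from 0.28 to 0.01 with length and GC trends removed. On log2 of CPM + 1, Prom1 was at 0.38, Aldh1a1 at 0.64 and Aldh1a3 at 0.97, a scale that understates low genes, and the 15 to 58 counts per library limit the precision of Prom1. No paired analysis was possible because the labels give the groups no shared replicate numbers.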
